A study of Mus musculus with 7 samples.

Results

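Seminal vesicles of mice at 3 months were compared with those at 20 and 28 months, one cell set at a time. The comparison holds 6 of the 23 mice in the series, 2 at 3 months (mice 1 and 2), 2 at 20 months and 2 at 28 months. All 6 were wild type C57BL/6J males on the chow diet 5P76 and received no rapamycin, a drug that 4 further mice of the same ages (2 at 20 and 2 at 28 months) had been given. The 10 mice of this aging pool were labelled with sample tags, and their dissociated tissue was run as 1 pool in droplets, where each captured RNA molecule carries a unique molecular identifier (UMI). The submitters' labels name the pool and not the single mouse, so the age was read from the name of each demultiplexed matrix together with the study's list of animals. The tag recorded for each mouse matched that name in 10 of 10 matrices, and no cell barcode was shared between any 2 mice. The matrices had been split by these tags, so neither is an independent check of identity. The leading tag held 78.9% of tag UMIs in mouse 2 at 28 months and 87.2% to 92.0% in the rest of the 6 mice.

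Cells were kept if they had at least 500 genes detected, at most 10% of their UMIs on mitochondrially encoded genes and less than 30% of their UMIs on the secretory genes *Svs2*, *Svs4*, *Svs5* and *Svs6*. These are called low-*Svs* cells, the tissue without its main secretory epithelium, and there were 2843 of them in the 6 mice, of 30609 in all 23 mice. Among them, 1006 cells had at least 1 UMI of *Ptprc*, the CD45 gene of white blood cells, and are called *Ptprc*-positive cells. A further 701 cells had at least 1 UMI of the type I collagen genes *Col1a1* or *Col1a2* and none of *Ptprc*, and are called stromal cells. Within the *Ptprc*-positive cells, 447 had at least 2 UMIs on macrophage markers and more of them than on T or B cell markers, and 301 met the same condition for T cell markers. UMIs were summed per mouse in each of these 5 cell sets, so the mouse is the replicate, and levels are given in counts-per-million units (CPM) of the set's scaled UMI total. In such sums a smaller share of cells of a type and less RNA per cell cannot be told apart.

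The seminal vesicle is a paired accessory gland whose folded secretory epithelium makes most of the seminal fluid. Basal epithelial cells, a coat of fibroblasts and smooth muscle, vessels and resident white blood cells surround that epithelium. Fibroblasts build the matrix from collagen fibrils, the small proteoglycans that bind and space them, and elastic fibres. They also make complement factors and chemokines, the secreted proteins by which white blood cells find their way into tissue. In many ageing mouse organs, lymphocytes including B cells gather in the tissue, and senescent cells secrete cytokines, proteases and their inhibitors.

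A mouse contributed 265 to 772 low-*Svs* cells with 1348457 to 3962366 UMIs, 89 to 345 *Ptprc*-positive cells and 66 to 167 stromal cells. Macrophage-marker cells numbered 49 to 138 and T-marker cells 25 to 106 per mouse. The median depth of low-*Svs* cells was 2749 to 4493 UMIs, and 2.03% to 2.39% of the set's UMIs were mitochondrial. Markers of neighbouring tissues were present in uneven amounts. In the low-*Svs* cells the 6 epididymis markers summed to 19.4 and 5.09 CPM at 3 months, 532 and 1635 at 20 months and 11.4 and 129 at 28 months. The 6 prostate-like markers, *Tgm4* and *Pbsn* among them, summed to 7799 and 16327 at 3 months, 4623 and 14304 at 20 months and 2808 and 799.6 at 28 months. The labelled tissue was checked on its own secretory genes, of which *Svs1* stood at 369 and 619 CPM at 3 months, 206 and 249.8 at 20 months and 329.9 and 215 at 28 months even in these cells. The 2 mice at 20 months therefore carried most epididymis RNA, and the prostate-like markers were highest in a 3-month and a 20-month mouse. Among the rapamycin mice, which enter only where they are named, mouse 1 at 28 months stood with the 3-month mice rather than the older ones for *Ly6e* in macrophage-marker cells and for the *Gm10260* share given at the end. The same mouse was within the 3-month range for *Prdx6* (860 CPM) and *Gm42418* (2560) in stromal cells and *Svs3b* (460) in low-*Svs* cells. For *Gm47283* in low-*Svs* cells (189) it stood with the older mice.

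*Ptprc* and type I collagen each need only 1 UMI, so free RNA in the droplets bears on both cell sets. Secretory cells above the *Svs* limit, which should lack *Ptprc*, had a *Ptprc* UMI in 5.10% to 34.3% of cells and a type I collagen UMI in 3.45% to 15.3%, at a median depth of 34984.5 to 54077 UMIs. In low-*Svs* cells the corresponding shares were 21.0% to 53.9% and 14.9% to 39.7% at 2749 to 4493 UMIs. *Epcam*, an adhesion molecule of epithelial cells, was detected in 5.33% and 6.36% of stromal cells at 3 months and in 0% to 5.39% in the older mice. In *Ptprc*-positive cells it was detected in 11.2% and 14.3% at 3 months and in 5.15% to 15.8% later.

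No gene was called between 3 months and the 2 older ages in any of the 5 cell sets (edgeR quasi-likelihood test, Benjamini-Hochberg adjusted p under 0.05, 2 mice against 4), so percent called was 0 in each. In low-*Svs* cells 11707 genes were tested, 329 had an unadjusted p under 0.05, and DESeq2 called 2. In *Ptprc*-positive cells the same numbers were 6581 tested, 247 and 5, and in stromal cells 6487, 397 and 8. In macrophage-marker cells they were 3575, 249 and 1, and in T-marker cells 2953, 89 and 0. One library bears on these counts: without mouse 2 at 20 months edgeR called 4 genes in *Ptprc*-positive cells and 32 in stromal cells, 26 of them lower with age. Where a gene's 4 older mice all lay above, or all below, both 3-month mice, its groups are said not to overlap. That held for 4.80% of genes upwards and 5.83% downwards in low-*Svs* cells. In the other sets the shares were 6.52% and 5.77% (*Ptprc*-positive), 6.67% and 7.25% (stromal), 8.59% and 8.20% (macrophage-marker) and 5.99% and 6.06% (T-marker), and each count below is to be read against the share of its own set. Values in parentheses after the levels of a gene are the log2 fold change of the 4 older mice over the 2 mice at 3 months, with its SE and adjusted p. The p-values measure the spread between these mice, which shared 1 pool and 1 run.

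The older mice held more B-marker cells and fewer NK-marker cells among their *Ptprc*-positive cells, with no overlap between the groups, although neither difference passed the test. Cells with at least 2 UMIs on B cell markers, and more than on any of 5 other marker lists, made up 3.37% and 1.79% of *Ptprc*-positive cells at 3 months, 11.3% and 6.14% at 20 months and 10.0% and 31.9% at 28 months. The second 28-month mouse stood highest, with 110 of 345 cells (exact 95% binomial interval 27.0% to 37.1%). The means were 2.58% ± 1.12 (SD, n = 2) and 14.9% ± 11.6 (SD, n = 4). Older minus 3-month mice came to 12.3 percentage points (exact two-sided permutation test over 15 splits, p = 0.267, adjusted p = 0.533 over 8 shares), and 6.60 points without that mouse. The rapamycin mice were at 4.71%, 9.28%, 5.45% and 1.57%, and with them as the older group the difference was 2.68 points. With 2 against 4 mice the smallest p this test can give is 0.0667.

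NK-marker cells carry genes of natural killer and other cytotoxic lymphocytes, such as *Gzmb* and *Prf1*. They made up 11.2% and 10.7% of *Ptprc*-positive cells at 3 months, 4.12% and 7.89% at 20 months and 4.02% and 4.64% at 28 months. Older minus 3-month mice came to -5.81 points (exact two-sided permutation test, p = 0.0667, adjusted p = 0.533), from 10 and 12 cells at 3 months against 4 to 16 in an older mouse. Interval bounds reached down to 5.52% in a 3-month mouse and up to 14.5% in an older one, so the intervals of single mice overlapped. These intervals cover counting error only. The rapamycin mice were at 7.06%, 8.25%, 8.18% and 8.66%, and with them as the older group the difference was -2.94 points.

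The other 6 shares overlapped between the groups. *Ptprc*-positive cells were 29.7% and 22.3% of low-*Svs* cells at 3 months, 36.6% and 21.0% at 20 months and 53.9% and 44.7% at 28 months, a difference of 13.1 points (exact permutation test, p = 0.333). Stromal cells were 36.7% and 29.9% at 3 months, 24.9% and 30.8% at 20 months and 21.9% and 13.9% at 28 months, a difference of -10.4 points (exact permutation test, p = 0.267). Both 28-month mice were thus higher than either 3-month mouse in white blood cells and lower in stromal cells, while a 20-month mouse lay within the 3-month range or beyond it on the other side. The share of secretory cells with a *Ptprc* UMI was also highest in the 28-month mice, at 34.3% of 35 and 18.9% of 37 cells against 5.10% to 9.09% in the other 4 mice, and its part in this difference was not tested. Leaving out 1 mouse gave 8.12 points (without mouse 1 at 28 months) to 19.1 points (without mouse 2 at 20 months). Thinned to 1000 UMIs per cell, which left 295 and 498 cells at 3 months and 264, 535, 455 and 764 in the older mice, these differences were 6.72 and -3.87 points. The shares with T cell, plasma cell, macrophage and dendritic cell markers differed by -3.19, 1.49, -3.49 and -0.284 points (exact permutation test, adjusted p = 0.533 to 1).

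**Figure D1:**
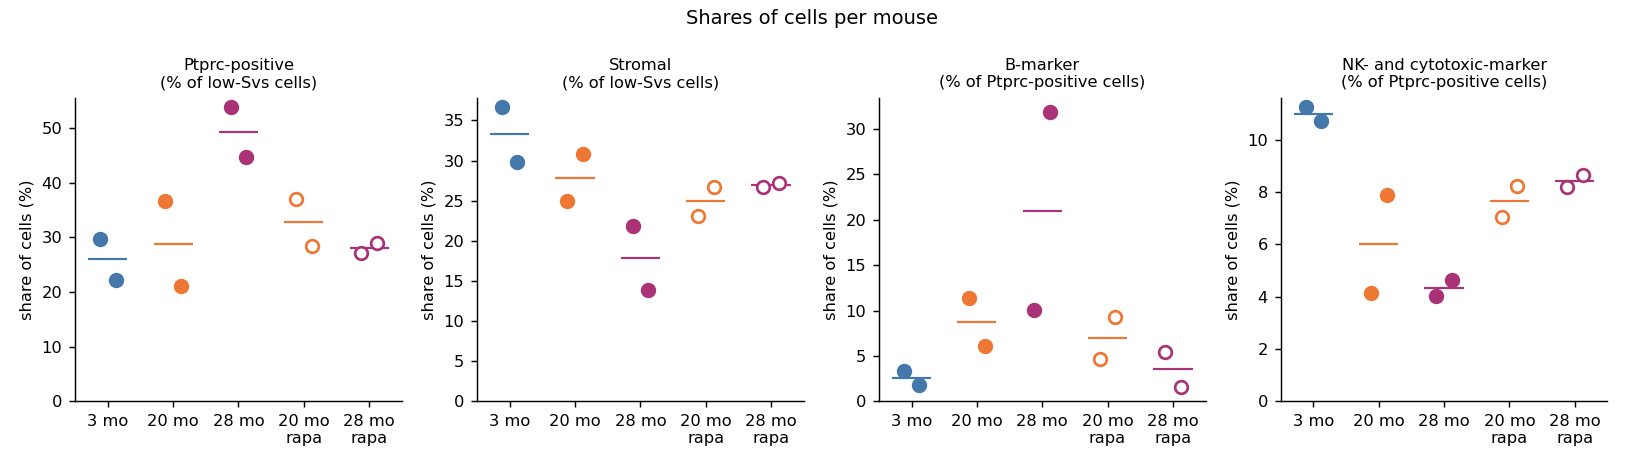
Shares of cells per mouse in percent (y axes from 0) by age, with filled circles for mice without rapamycin, open circles for the 4 rapamycin mice and bars for group means. B-marker cells reach 31.9% of *Ptprc*-positive cells in 1 mouse at 28 months, and NK-marker cells are at 10.7% and 11.2% at 3 months against 4.02% to 7.89% in the older mice without rapamycin.

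B lineage RNA was uneven between the older mice. *Igkc*, the constant region of the kappa light chain, stood at 104 and 43.8 CPM at 3 months, 11122 and 75.6 at 20 months and 3339.8 and 1219 at 28 months in low-*Svs* cells. *Jchain*, which joins secreted immunoglobulins into polymers, stood at 2.70 and 2.54 at 3 months, 1734 and 3.97 at 20 months and 126 and 266 at 28 months. Mouse 1 at 20 months was highest for both, and mouse 2 at 20 months was near the 3-month level. For *Jchain* the groups did not overlap (log2 fold change 7.64 ± 2.51 (SE), edgeR adjusted p = 0.875), and for *Igkc* they did (5.74 ± 1.92 (SE), edgeR adjusted p = 0.875). A wider filter took out every cell with at least 2 UMIs on B cell or plasma cell markers, whatever its other markers. It left 246 of 300 and 375 of 502 low-*Svs* cells at 3 months. These held 1048737 of 1879224 and 1432218 of 3857527 UMIs, so the filter was not limited to B-marker cells. In the cells left, *Igkc* stood at a log2 fold change of -0.0756.

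*Cd79a*, a signalling chain of the B cell receptor, was at 35.5 and 30.1 CPM at 3 months, 167 and 53.8 at 20 months and 188 and 409 at 28 months in *Ptprc*-positive cells (log2 fold change 2.65 ± 0.75 (SE), edgeR adjusted p = 0.999). *Ebf1*, a transcription factor of early B cells, was at 19.99 and 21.5 at 3 months, 84.6 and 38.4 at 20 months and 51.3 and 263 at 28 months (2.42 ± 0.88 (SE), edgeR adjusted p = 0.999). For both genes every older mouse lay above both 3-month mice, with mouse 2 at 28 months highest. All 6 tested of the 8 B cell markers had a positive log2 fold change there (median 1.87, against 0.0080 over all genes tested), none was called, and 2 had groups that did not overlap, beside 6.52% of all genes. *Ptprc* missed part of these cells. Counted over all low-*Svs* cells, cells with at least 2 UMIs on *Cd79a*, *Cd79b* and *Ms4a1* numbered 5 and 5 at 3 months, 25 and 11 at 20 months and 36 and 252 at 28 months, and 152 of the last 252 had no *Ptprc* UMI.

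In *Ptprc*-positive cells the lowest p belonged to *H2-Ob* (ENSMUSG00000041538, chr17:34238903-34254414, protein-coding, GRCm38). It encodes the beta chain of H2-O, which restrains peptide loading onto MHC class II and is made mostly in B cells. Its level was 6.66 and 4.30 CPM at 3 months, 53.9 and 36.9 at 20 months and 58.3 and 56.5 at 28 months. The 3-month values rest on 3 and 2 UMIs. All 4 older mice lay above both 3-month mice (log2 fold change 3.21 ± 0.43 (SE), edgeR adjusted p = 0.293). The partner chain *H2-Oa* was at 28.9 and 27.9 at 3 months, 61.6 and 30.8 at 20 months and 45.7 and 42.6 at 28 months (0.64 ± 0.34 (SE), edgeR adjusted p = 0.999). *H2-Ob* passed the threshold without mouse 2 at 20 months (adjusted p = 0.0344 in edgeR). Without cells of at least 2 UMIs on B cell or plasma cell markers it was at 2.74 ± 0.59 (SE, edgeR adjusted p = 0.926). With the rapamycin mice as the older group it was at 2.03 (edgeR adjusted p = 1.00).

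Class II genes were split between the directions in the same cells. Of the 10 class II genes tested in *Ptprc*-positive cells, 5 had a positive and 5 a negative log2 fold change (median -0.06), and none was called. For *H2-Ob* and *H2-Oa* the groups did not overlap, both upwards, beside 6.52% of all genes. *H2-Aa*, an alpha chain that presents peptide, was at 8004 and 4129.6 at 3 months, 5733 and 3676 at 20 months and 4399 and 4573 at 28 months (-0.40 ± 0.27 (SE), edgeR adjusted p = 0.999). The level was highest in mouse 1 at 3 months and overlapped between the groups, and without that mouse the log2 fold change was 0.19. In the whole low-*Svs* set all 10 class II genes had a positive log2 fold change (median 0.94), beside positive values for all 6 general leukocyte markers (median 1.22).

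The tested NK and cytotoxic genes all had a negative log2 fold change in *Ptprc*-positive cells, and none was called. *Gzmb*, the granule protease granzyme B, was at 155 and 404 CPM at 3 months, 48.7 and 131 at 20 months and 55.5 and 107 at 28 months, with every older mouse below both 3-month mice (-1.70 ± 0.46 (SE), edgeR adjusted p = 0.999). *Prf1*, the pore-forming perforin, was at 22.2 and 19.3 at 3 months, 7.69 and 4.61 at 20 months and 7.03 and 13.9 at 28 months (-1.25 ± 0.57 (SE), edgeR adjusted p = 0.999). *Ctsw*, a protease of cytotoxic lymphocytes, was at 99.9 and 163 at 3 months, 56.4 and 86.1 at 20 months and 44.3 and 90.9 at 28 months (-0.92 ± 0.35 (SE), edgeR adjusted p = 0.999). All 6 tested of the 8 NK and cytotoxic genes had a negative log2 fold change (median -0.83), and for 3 the groups did not overlap, beside 5.77% of all genes downwards. Summed, the list stood at 828 and 888 CPM at 3 months, 331 and 484 at 20 months and 285 and 722 at 28 months, so mouse 2 at 28 months came nearest the 3-month level.

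In the T-marker cells *Gzmb* was at 789 and 830.1 at 3 months, 201 and 538 at 20 months and 288 and 333 at 28 months (-1.24 ± 0.36 (SE), edgeR adjusted p = 0.999). *Ctsw* was at 464 and 491 at 3 months, 236 and 308 at 20 months and 249 and 309 at 28 months (-0.78 ± 0.25 (SE), edgeR adjusted p = 0.999). Both were lower in all 4 older mice than in either 3-month mouse. Of 12 tested effector and exhaustion genes, 10 had a negative and 2 a positive log2 fold change (median -0.19), none was called, and 1 was without overlap in each direction, beside 5.99% of genes upwards and 6.06% downwards in this set. *Tox*, a regulator of exhausted T cells, went the other way at 11.6 and 7.55 at 3 months, 35.5 and 13.1 at 20 months and 115 and 90.9 at 28 months, a ratio of 8.26 by summed UMIs with an exact 95% counting interval of 2.19 to 69.8, from 2 UMIs at 3 months (edgeR adjusted p = 0.999). Naive T cell genes had a positive log2 fold change in 5 of 6 tested (median 0.69). *Ccr7*, the receptor that guides T cells to lymph nodes, was at 11.6 and 0 at 3 months, 82.8 and 0 at 20 months and 129 and 139 at 28 months and overlapped, because 1 mouse of each group was at 0. In *Ptprc*-positive cells *Klf2*, a factor that keeps T cells quiescent, was at 371 and 482 at 3 months, 708 and 692 at 20 months and 545 and 1079.8 at 28 months (0.83 ± 0.30 (SE), edgeR adjusted p = 0.999), above both 3-month mice in every older mouse.

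Gamma delta and type 17 genes had a positive log2 fold change in all 3 tested of 10 in T-marker cells (median 1.59), with 1 without overlap, beside 5.99% of all genes. The genes with the lowest p in these cells were *Cxcl2*, *Rgs16* and *Tbc1d4* upwards and *Ccl11*, *Sorl1* and *Epcam* downwards. *Rgs16*, a brake on chemokine receptor signalling, was at 23.2 and 37.7 at 3 months, 118 and 91.8 at 20 months and 81.5 and 161 at 28 months (1.84 ± 0.49 (SE), edgeR adjusted p = 0.999). *Tbc1d4*, a regulator of glucose transporter traffic, was at 11.6 and 0 at 3 months, 154 and 32.8 at 20 months and 105 and 84.8 at 28 months, a ratio of older over 3 months of 19.0 by summed UMIs with an exact 95% counting interval of 3.30 to 763, from 1 UMI at 3 months (edgeR adjusted p = 0.999). *Sorl1*, a sorting receptor, was at 128 and 189 at 3 months, 35.5 and 45.9 at 20 months and 62.3 and 72.7 at 28 months (-1.47 ± 0.36 (SE), edgeR adjusted p = 0.999). These groups did not overlap, but a mouse had as few as 25 T-marker cells. *Cxcl2*, a chemokine for neutrophils, was at 0 and 30.2 at 3 months, 378 and 131 at 20 months and 638 and 203 at 28 months. *Ccl11*, a chemokine of fibroblasts, was at 186 and 121 at 3 months, 0 and 0 at 20 months and 14.4 and 0 at 28 months, and the epithelial *Epcam* at 429 and 445 at 3 months, 59.1 and 229.6 at 20 months and 125 and 57.6 at 28 months. These 3 are not T cell genes, 5 tested luminal epithelial markers all had a negative log2 fold change in the same cells, and the part that free RNA or doublets had in these values was not tested.

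DESeq2 called 5 genes in *Ptprc*-positive cells, *Cldn5*, *Cxcl13* and *Ly6e* upwards and *Slco2a1* and *Clec3b* downwards, and edgeR called none of them. *Cldn5*, the tight junction protein of vessels, had no UMI in either 3-month mouse and stood at 41.04, 106, 76.6 and 28.7 CPM in the 4 older mice. Against the limit of 3 UMIs over the 3-month group it was at least 19.2-fold higher (edgeR adjusted p = 0.999). The rapamycin mice were at 0 and 0 at 20 months and at 0 and 24.0 at 28 months for *Cldn5*. *Slco2a1*, a prostaglandin transporter of endothelium, was at 46.6 and 79.5 at 3 months, 7.69 and 15.4 at 20 months and 5.62 and 4.92 at 28 months (-2.996 ± 0.47 (SE), edgeR adjusted p = 0.483), below both 3-month mice in all older mice. *Clec3b*, the matrix protein tetranectin, was at 238 and 40.8 at 3 months, 5.13 and 19.99 at 20 months and 21.1 and 4.10 at 28 months (-3.38 ± 0.73 (SE), edgeR adjusted p = 0.999), with both 3-month mice above all older mice and mouse 1 at 3 months far above the rest. *Cxcl13*, which attracts B cells, was at 8.88 and 6.45 at 3 months, 43.6 and 148 at 20 months and 164 and 401 at 28 months (4.63 ± 0.98 (SE), edgeR adjusted p = 0.999), with mouse 2 at 28 months highest.

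Endothelial markers were measured in the same *Ptprc*-positive cells. The 6 lymphatic ones summed to 48.9 and 30.1 CPM at 3 months, 1908 and 1423 at 20 months and 295 and 40.96 at 28 months there. Blood endothelial markers summed to 6.66 and 153 at 3 months, 303 and 197 at 20 months and 117 and 53.3 at 28 months. Lymphatic markers were high in 3 of the 4 older mice and within the 3-month range in mouse 2 at 28 months. All 6 lymphatic markers had a positive log2 fold change, and for 5 the groups did not overlap, beside 6.52% of all genes, although *Prox1* and *Reln* had no UMI at 3 months (at least 3.36-fold and 6.89-fold higher against 3 UMIs over that group). In cells with no UMI on either endothelial list, 0 of 4860 genes were called by edgeR (208 with an unadjusted p under 0.05), *H2-Ob* was at 3.18, and *Cldn5* and *Slco2a1* had too few UMIs to be tested.

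Most tested genes of 4 fibroblast matrix lists had a positive log2 fold change in stromal cells, and none passed the test. Small proteoglycans, which bind collagen fibrils and set their spacing, had a positive log2 fold change in all 8 tested of 9 (median 0.64, against -0.0054 over all 6487 genes). For 5 of the 8 the 4 older mice lay above both 3-month mice, beside 6.67% of all genes. Lumican, *Lum* (chr10:97565128-97572703), was at 112 and 80.4 CPM at 3 months, 116 and 232 at 20 months and 287 and 256 at 28 months (1.24 ± 0.34 (SE), edgeR adjusted p = 0.602). Decorin, *Dcn* (chr10:97479609-97518143), was at 2953 and 2969 at 3 months, 3329 and 4511 at 20 months and 4227 and 4916 at 28 months (0.52 ± 0.16 (SE), edgeR adjusted p = 0.71). *Aspn*, asporin, was at 44.6 and 45.3 at 3 months, 64.1 and 73.9 at 20 months and 57.9 and 99.00 at 28 months (0.71 ± 0.27 (SE), edgeR adjusted p = 0.775). *Prelp*, a proteoglycan of connective tissue, was at 83.3 and 86.2 at 3 months, 156 and 118 at 20 months and 118 and 119.7 at 28 months (0.57 ± 0.21 (SE), edgeR adjusted p = 0.775). The 3-month mice were close to each other for *Dcn*, *Aspn* and *Prelp*, and for *Lum* mouse 1 at 20 months was only just above them. In rapamycin-treated mice of the same ages *Lum* stood at 157, 166, 108 and 47.2, within and below the 3-month range in 2 of the 4, so that its log2 fold change against 3 months was 0.27 there. *Prelp* had a log2 fold change of -0.11 in stromal cells with no UMI on the luminal, basal, urothelium and prostate-like epithelial markers. That filter left 19 to 51 cells per mouse.

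Collagens followed with wider spread. The 6 tested fibrillar collagens outside the rule had positive log2 fold changes (median 0.67), and the groups did not overlap for 2 of them, beside 6.67% of all genes. *Col12a1*, a collagen that links fibrils, was at 23.2 and 40.9 at 3 months, 44.1 and 118 at 20 months and 94.02 and 329 at 28 months (2.18 ± 0.69 (SE), edgeR adjusted p = 0.714), highest in mouse 2 at 28 months. *Col14a1*, of the same class, was at 40.7 and 17.5 at 3 months, 48.1 and 72.6 at 20 months and 150.1 and 41.4 at 28 months (1.51 ± 0.56 (SE), edgeR adjusted p = 0.775), highest in mouse 1 at 28 months. *Col3a1*, type III collagen, was at 461 and 365 at 3 months, 421 and 488 at 20 months and 1275 and 606 at 28 months and overlapped (0.76 ± 0.41 (SE), edgeR adjusted p = 0.869). With the rapamycin mice as the older group it was at -0.20.

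Elastic fibre genes had a positive log2 fold change in 9 of 12 tested (median 0.49), with 3 without overlap upwards, beside 6.67% of all genes in this and the next lists. *Fbln1*, fibulin 1, was at 96.9 and 139 at 3 months, 196 and 230.5 at 20 months and 260.4 and 279 at 28 months (1.03 ± 0.23 (SE), edgeR adjusted p = 0.477). Elastin, *Eln*, was at 25.2 and 23.4 at 3 months, 64.1 and 30.6 at 20 months and 54.2 and 29.9 at 28 months (0.81 ± 0.38 (SE), edgeR adjusted p = 0.836). Every older mouse lay above both 3-month mice for the pair, by little for *Eln* in mouse 2 at 28 months. Collagen processing enzymes were positive in 12 of 14 (median 0.41), with 3 without overlap. Among these was *Plod2*, which hydroxylates collagen lysines, at 40.7 and 29.2 at 3 months, 44.1 and 58.6 at 20 months and 56.1 and 92.1 at 28 months (0.87 ± 0.33 (SE), edgeR adjusted p = 0.775). Genes of the TGF beta pathway were positive in 13 of 15 (median 0.34), with 2 without overlap. *Thbs1*, an activator of latent TGF beta, was at 1062 and 1071 at 3 months, 1149.6 and 1461 at 20 months and 1461 and 2243 at 28 months (0.57 ± 0.24 (SE), edgeR adjusted p = 0.795). *Skil*, a feedback repressor, was at 174 and 161 at 3 months, 228 and 233 at 20 months and 269 and 357 at 28 months (0.70 ± 0.23 (SE), edgeR adjusted p = 0.741).

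Complement genes had a positive log2 fold change in all 11 tested of 14 (median 0.70), and for 7 of them the groups did not overlap, all upwards beside 6.67% of all genes. *C4b*, the fourth component, was at 11.6 and 10.2 at 3 months, 20.03 and 16.6 at 20 months and 125 and 96.7 at 28 months (2.58 ± 0.88 (SE), edgeR adjusted p = 0.755), with both 28-month mice far above the 20-month mice. Its UMIs may be shared with the near-identical *C4a*. *C1qc*, a chain of C1q made by macrophages, was at 1.94 and 16.1 at 3 months, 44.1 and 24.2 at 20 months and 52.4 and 27.6 at 28 months (1.86 ± 0.60 (SE), edgeR adjusted p = 0.735).

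Macrophage markers were measured in the same cells. Their 7 genes summed to 21.3 and 80.4 CPM at 3 months, 176 and 115 at 20 months and 154 and 182 at 28 months in stromal cells, without overlap. The 6 general leukocyte markers summed to 98.8 and 113 at 3 months, 168 and 192 at 20 months and 172 and 186 at 28 months. In macrophage-marker cells the same 7 genes summed to 9764 and 9088 at 3 months and 8494, 9427, 8413 and 11369 later. The part of macrophage RNA in the stromal complement and chemokine values was not tested. Stromal cells with at least 3 UMIs of type I collagen and none of *Epcam* numbered 21 to 75 per mouse. In these, *Lum* stood at 1.24 ± 0.25 (SE, edgeR adjusted p = 0.352), *Dcn* at 0.67 ± 0.20 (SE, edgeR adjusted p = 0.594) and *C1qc* at 2.64 ± 0.93 (SE, edgeR adjusted p = 0.651) on the log2 scale.

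Chemokine genes had a positive log2 fold change in 15 of 17 tested (median 1.01), and for 7 the groups did not overlap upwards and for 1 downwards, beside 6.67% and 7.25% of all genes. *Cxcl12*, which retains lymphocytes and stem cells, was at 98.8 and 105 CPM at 3 months, 204 and 136 at 20 months and 255 and 230.2 at 28 months (1.01 ± 0.27 (SE), edgeR adjusted p = 0.602). *Ccl11*, eotaxin, was at 199.6 and 94.99 at 3 months, 661 and 288 at 20 months and 566 and 1375 at 28 months (2.30 ± 0.58 (SE), edgeR adjusted p = 0.568). *Ccl6*, a myeloid chemokine, was at 1.94 and 2.92 at 3 months, 20.03 and 12.7 at 20 months and 30.7 and 13.8 at 28 months, a ratio of 7.50 by summed UMIs with an exact 95% counting interval of 2.38 to 38.0, from 3 UMIs at 3 months (edgeR adjusted p = 0.572). The 4 older mice were above both 3-month mice for all 3, with mouse 2 at 28 months highest for *Ccl11*. In cells free of epithelial markers *Ccl11* was at a log2 fold change of 0.63.

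*Ccl19*, which draws T cells and dendritic cells into lymphoid tissue, was at 7.75 and 1.46 at 3 months, 44.1 and 30.6 at 20 months and 32.5 and 62.2 at 28 months (3.21 ± 0.60 (SE), edgeR adjusted p = 0.303). Other copies carry the same symbol in the files, so its UMIs are uncertain. The rapamycin mice were at 48.7, 94.3, 31.9 and 47.2, also above both 3-month mice. *Cxcl13*, which attracts B cells, was at 17.4 and 2.92 at 3 months, 44.1 and 34.4 at 20 months and 593 and 576 at 28 months (5.03 ± 1.45 (SE), edgeR adjusted p = 0.621), and the 28-month mice were highest. *Cxcl10*, an interferon-induced chemokine, was the exception at 2282 and 2294 at 3 months, 2091 and 1203 at 20 months and 1107 and 889 at 28 months (-0.80 ± 0.28 (SE), edgeR adjusted p = 0.775).

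The single genes with the lowest p in stromal cells were *Ccl12*, *Rnd1* and *Gm47283* upwards and *Myl7*, *Gm10260* and *Gm42418* downwards. *Ccl12*, a monocyte chemokine (chr11:82101845-82103400), was at 1.94 and 1.46 CPM at 3 months, 40.1 and 26.7 at 20 months and 23.5 and 39.1 at 28 months (edgeR adjusted p = 0.191). The 3-month values rest on 1 UMI in each mouse, so the ratio of 18.1 by summed UMIs has an exact 95% counting interval of 4.79 to 152. *Rnd1*, a small GTPase that loosens actin stress fibres, was at 23.2 and 23.4 at 3 months, 56.1 and 71.3 at 20 months and 63.3 and 69.1 at 28 months (1.49 ± 0.26 (SE), edgeR adjusted p = 0.303). *Myl7*, a myosin light chain best known from the heart's atria, was at 46.5 and 42.4 at 3 months, 0 and 3.82 at 20 months and 0 and 2.30 at 28 months (-4.35 ± 0.60 (SE), edgeR adjusted p = 0.191). *Gm42418*, a non-coding gene that lies at a ribosomal RNA repeat, was at 3026 and 2185 at 3 months, 1394 and 1510.2 at 20 months and 1063 and 1372 at 28 months (-0.96 ± 0.18 (SE), edgeR adjusted p = 0.303), and its reads may be ribosomal RNA. None of these groups overlapped.

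DESeq2 called 8 genes in stromal cells, none of which edgeR called. They were *Gm47283*, *Igfbp2*, *Apoe* and *Col6a5* upwards and *Prdx6*, *Rarres2*, *Gm10260* and *Gm42418* downwards. *Apoe*, the lipid carrier apolipoprotein E, was at 727 and 1020.0 at 3 months, 1682 and 1590.4 at 20 months and 1841 and 1278 at 28 months (0.87 ± 0.20 (SE), edgeR adjusted p = 0.477). *Col6a5*, a chain of beaded-filament collagen, was at 40.7 and 24.8 at 3 months, 100.1 and 44.6 at 20 months and 213 and 198 at 28 months (2.10 ± 0.61 (SE), edgeR adjusted p = 0.65), and for both genes the 4 older mice lay above both 3-month mice. *Igfbp2*, which binds insulin-like growth factors, was at 36.8 and 70.1 at 3 months, 316 and 67.5 at 20 months and 421 and 182 at 28 months and overlapped (2.16 ± 0.65 (SE), edgeR adjusted p = 0.71). *Rarres2*, the chemoattractant chemerin, was at 2298 and 1577 at 3 months, 749 and 1110.3 at 20 months and 1096 and 1036 at 28 months (-0.95 ± 0.20 (SE), edgeR adjusted p = 0.477), lower in all older mice.

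Senescence and secretory phenotype genes had a positive log2 fold change in 15 of 19 tested in stromal cells (median 0.52), with 5 without overlap upwards and 1 downwards, beside 6.67% and 7.25% of all genes. *Cdkn1a*, the cell cycle inhibitor p21, was at 192 and 168 at 3 months, 429 and 234 at 20 months and 359.8 and 723 at 28 months (1.27 ± 0.39 (SE), edgeR adjusted p = 0.71). *Il6*, an inflammatory cytokine, was at 186 and 202 at 3 months, 573 and 244 at 20 months and 553 and 327 at 28 months (1.12 ± 0.34 (SE), edgeR adjusted p = 0.71), and at -0.0515 with the rapamycin mice (119, 285, 191 and 141) as the older group. Mouse 2 at 28 months was highest for *Cdkn1a*, and mice 1 of either older age for *Il6*. *Hsd11b1*, which regenerates active glucocorticoid, was at 15.5 and 10.2 at 3 months, 40.1 and 36.9 at 20 months and 30.7 and 41.4 at 28 months (1.53 ± 0.35 (SE), edgeR adjusted p = 0.477). Among antioxidant genes, *Gpx3*, a secreted peroxidase, was at 196 and 264 at 3 months, 389 and 424 at 20 months and 488 and 1094 at 28 months (1.38 ± 0.42 (SE), edgeR adjusted p = 0.71). The cytosolic *Gpx1* was at 1019 and 962 at 3 months, 749 and 635 at 20 months and 622 and 688 at 28 months (-0.56 ± 0.16 (SE), edgeR adjusted p = 0.602). The median of the 15 tested antioxidant and iron genes was -0.0077.

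Interferon-stimulated genes had a negative log2 fold change in 16 of 18 tested (median -0.48), with 2 without overlap downwards and 1 upwards, near the 7.25% and 6.67% of all genes. *Ifit2*, an antiviral protein, was at 409 and 412 at 3 months, 288 and 169 at 20 months and 130.2 and 99.00 at 28 months (-1.29 ± 0.33 (SE), edgeR adjusted p = 0.569). The 3-month mice were nearly equal and the 28-month mice lowest. In *Ptprc*-positive cells 11 of 20 were negative (median -0.09), and in macrophage-marker cells 13 of 18 (median -0.23).

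Epithelial markers were measured in the stromal cells as well. *Krt19*, a keratin of simple epithelium, was at 122 and 101 at 3 months, 12.02 and 43.3 at 20 months and 14.5 and 39.1 at 28 months (-1.91 ± 0.39 (SE), edgeR adjusted p = 0.404). *Epcam* was at 79.4 and 134 at 3 months, 0 and 68.8 at 20 months and 10.8 and 4.60 at 28 months (-1.998 ± 0.74 (SE), edgeR adjusted p = 0.775). All 6 luminal epithelial markers had a negative log2 fold change (median -1.57), and for 4 the groups did not overlap, beside 7.25% of all genes. The 6 summed to 699 and 758 CPM at 3 months, 108 and 728 at 20 months and 90.4 and 138 at 28 months, so mouse 2 at 20 months stood with the 3-month mice. The 6 basal markers summed to 184 and 396 at 3 months, 8.01 and 158 at 20 months and 48.8 and 20.7 at 28 months without overlap. *Prdx6*, a peroxiredoxin that DESeq2 called, was at 559.9 and 1011 at 3 months, 188 and 427 at 20 months and 206 and 140.4 at 28 months (-1.69 ± 0.39 (SE), edgeR adjusted p = 0.477). It was at 0.27 ± 0.29 (SE, edgeR adjusted p = 0.900) in the stromal cells with no UMI on the luminal, basal, urothelium and prostate-like lists. These were 19 to 51 cells per mouse. In those cells *Lum* was at 1.40 ± 0.48 (SE, edgeR adjusted p = 0.699), and edgeR called 0 of 1786 genes (119 with an unadjusted p under 0.05).

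Smooth muscle markers in the stromal cells followed 1 mouse. The 6 summed to 1817 and 567 CPM at 3 months, 9513 and 1373 at 20 months and 2363 and 1326 at 28 months. *Acta2*, smooth muscle actin, was at 645 and 114 at 3 months, 4294 and 563 at 20 months and 1023 and 518 at 28 months (2.07 ± 0.96 (SE), edgeR adjusted p = 0.836). Mouse 1 at 20 months was highest. In cells with at least 3 type I collagen UMIs and no *Epcam* UMI the log2 fold change of *Acta2* was -0.18. The 5 red blood cell markers summed to 1.94 and 24.8 at 3 months, 3597 and 1.27 at 20 months and 25.3 and 2.30 at 28 months, with mouse 1 at 20 months again highest. Fibroblast markers summed to 7591 and 8387 at 3 months, 8940.2 and 11439.6 at 20 months and 8874 and 11153 at 28 months, higher in all 4 older mice.

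**Figure D2:**
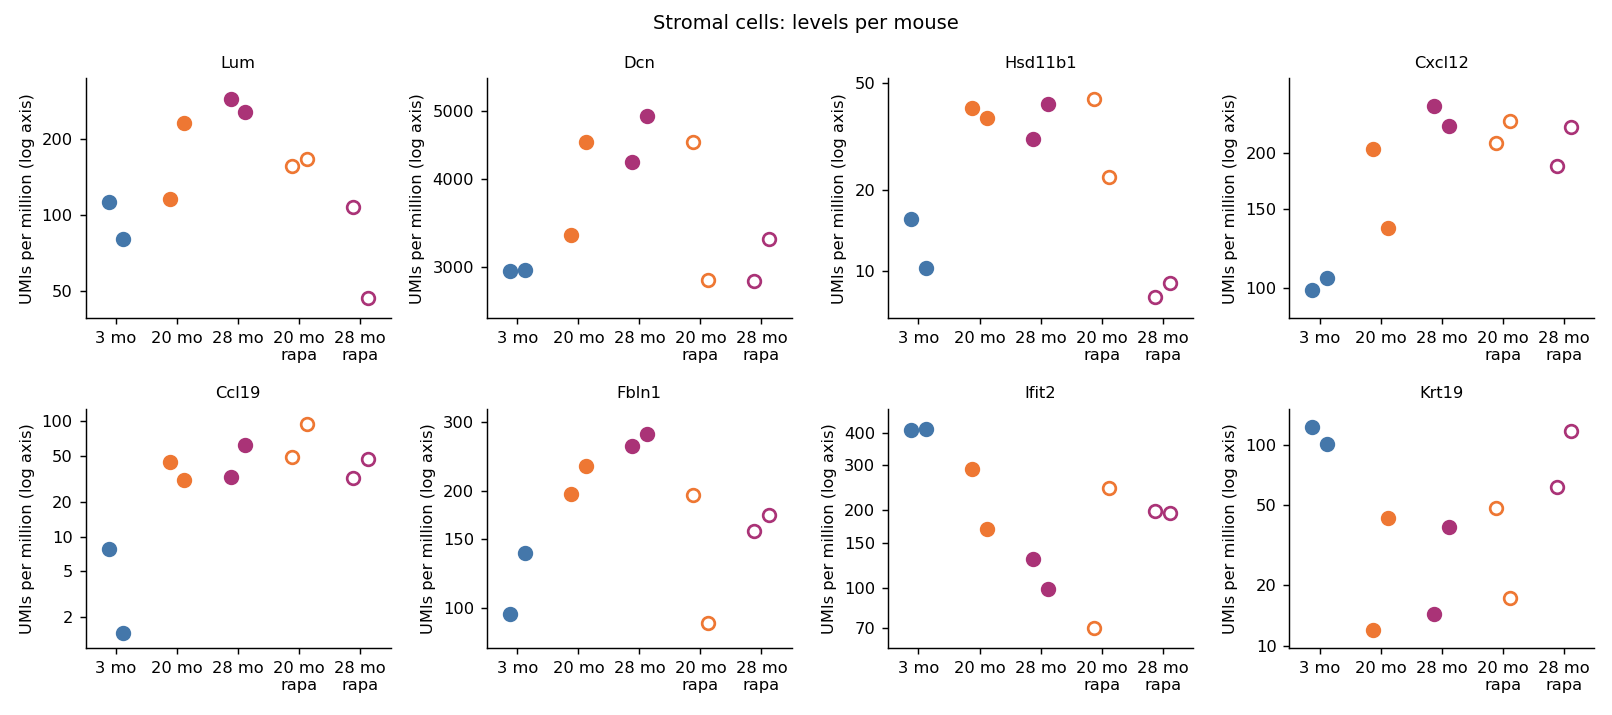
Levels of 8 genes in the stromal cells of each mouse, in CPM on log axes, by age, with filled circles for mice without rapamycin and open circles for the 4 rapamycin mice. For *Lum*, *Dcn*, *Hsd11b1*, *Cxcl12*, *Ccl19* and *Fbln1* the 4 filled older mice lie above both 3-month mice, for *Ifit2* and *Krt19* below them, and no gene passed the test.

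Macrophage-marker cells of the older mice held less *Tnf*, the inflammatory cytokine, at 1703 and 819.8 CPM at 3 months, 556 and 440.2 at 20 months and 305 and 192 at 28 months, without overlap but without passing the test (-1.77 ± 0.42 (SE), edgeR adjusted p = 0.675). The rapamycin mice were at 799, 1419.9, 500.2 and 523, of which 1 lay between the 3-month values. *Ccl3*, a chemokine of inflamed macrophages, was at 9332 and 4848 at 3 months, 4589 and 3853 at 20 months and 1887 and 2332 at 28 months (-1.17 ± 0.38 (SE), edgeR adjusted p = 0.675). *Cxcl2* was at 14629 and 6954 at 3 months, 5601 and 6563 at 20 months and 4999.6 and 6381 at 28 months (-0.87 ± 0.26 (SE), edgeR adjusted p = 0.675). For all of them mouse 1 at 3 months was highest, and without it *Cxcl2* was at a log2 fold change of -0.19. Of 16 chemokines tested, 11 had a negative and 5 a positive log2 fold change (median -0.48). The groups did not overlap for 3 downwards and 2 upwards, beside 8.20% and 8.59% of all genes in this set.

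*Cxcl13* and *Ccl9* were the chemokines without overlap upwards. *Cxcl13* was at 0 and 14.1 at 3 months, 90.1 and 295 at 20 months and 262 and 1116 at 28 months, a ratio of 68.8 by summed UMIs with an exact 95% counting interval of 23.5 to 334, from 3 UMIs at 3 months (edgeR adjusted p = 0.675), with mouse 2 at 28 months highest. The interval leaves out the spread between the older mice, from 90.1 to 1116. *Ccl9*, a myeloid chemokine, was at 229 and 70.7 at 3 months, 572 and 240.1 at 20 months and 513 and 379 at 28 months (1.51 ± 0.51 (SE), edgeR adjusted p = 0.675), with mouse 2 at 20 months just above the 3-month mice. *C3*, the central complement protein, was at 35.6 and 56.5 at 3 months, 138 and 106 at 20 months and 121 and 194 at 28 months (1.59 ± 0.38 (SE), edgeR adjusted p = 0.675). *C4b* was at 40.7 and 14.1 at 3 months, 63.6 and 131 at 20 months and 189 and 230.5 at 28 months (2.53 ± 0.64 (SE), edgeR adjusted p = 0.675). These 2 genes were the ones without overlap of 10 complement genes tested, beside 8.59% of all genes upwards. Of the 10 genes 8 were positive (median 0.15).

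Most antigen presentation genes had a negative log2 fold change in macrophage-marker cells, and none was called. MHC class I genes had a negative log2 fold change in 10 of 13 tested (median -0.40, against -0.0073 over all 3575 genes), and for 6 the groups did not overlap, beside 8.20% of all genes. *H2-D1*, a classical class I chain, was at 3507 and 2554 at 3 months, 1934 and 2034 at 20 months and 1685 and 2398 at 28 months (-0.59 ± 0.20 (SE), edgeR adjusted p = 0.675). *H2-Q6* was at 224 and 84.8 at 3 months, 58.3 and 69.1 at 20 months and 40.4 and 66.2 at 28 months (-1.42 ± 0.41 (SE), edgeR adjusted p = 0.675), but class I genes are close copies of each other and the split of reads between them is uncertain. Class II genes were negative in 6 of 8 (median -0.38). *H2-DMb2*, a chain of the peptide loader H2-M, was at 152 and 80.1 at 3 months, 52.99 and 50.9 at 20 months and 48.3 and 22.8 at 28 months (-1.43 ± 0.40 (SE), edgeR adjusted p = 0.675). *H2-Aa* was at 14232 and 8019 at 3 months, 8335 and 7076 at 20 months and 5449 and 7638 at 28 months (-0.64 ± 0.24 (SE), edgeR adjusted p = 0.675). Mouse 1 at 3 months was the highest of the 6 mice for all 4 genes, and for *H2-Aa* the groups overlapped. Without that mouse the log2 fold changes were -0.29 for *H2-D1*, -0.52 for *H2-Q6* and -0.12 for *H2-Aa*.

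The lowest p values in macrophage-marker cells belonged to *Pdxk*, *Baiap2* and *Plau* downwards and *Ly6e*, *Rps18* and *Ndufb9* upwards. *Pdxk*, the kinase that makes active vitamin B6 (chr10:78436744-78464975), was at 158 and 127 at 3 months, 58.3 and 54.6 at 20 months and 53.9 and 52.5 at 28 months (-1.38 ± 0.23 (SE), edgeR adjusted p = 0.675). The 4 older mice were nearly equal and lay below both 3-month mice, and the rapamycin mice were at 80.6, 73.5, 116 and 152. *Baiap2*, an organiser of the actin cytoskeleton, was at 137 and 118 at 3 months, 42.4 and 43.7 at 20 months and 42.7 and 66.2 at 28 months (-1.37 ± 0.28 (SE), edgeR adjusted p = 0.675). *Plau*, urokinase, was at 447 and 452 at 3 months, 164 and 247 at 20 months and 235 and 169 at 28 months (-1.13 ± 0.24 (SE), edgeR adjusted p = 0.675), and at 0.0541 with the rapamycin mice (403, 424, 582 and 469.7) as the older group. *Ndufb9*, a subunit of respiratory complex I, was at 117 and 118 at 3 months, 217 and 222 at 20 months and 251 and 224 at 28 months (0.96 ± 0.23 (SE), edgeR adjusted p = 0.675).

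*Ly6e*, a lipid-anchored membrane protein of the Ly6 family, stood above both 3-month mice in every older mouse of 3 cell sets, with no edgeR call. It was at 81.3 and 42.4 at 3 months, 207 and 491 at 20 months and 378 and 326 at 28 months in macrophage-marker cells (2.51 ± 0.44 (SE), edgeR adjusted p = 0.675). DESeq2 called it there. It was at 124 and 73.1 at 3 months, 246 and 517 at 20 months and 359.9 and 289 at 28 months in *Ptprc*-positive cells (1.84 ± 0.38 (SE), edgeR adjusted p = 0.999). In low-*Svs* cells it was at 125 and 63.4 at 3 months, 188 and 389 at 20 months and 374 and 292 at 28 months (1.73 ± 0.41 (SE), edgeR adjusted p = 0.875), and the macrophage-marker cells are among the cells of both larger sets. Of the rapamycin mice, mouse 1 at 28 months was at 17.2 in macrophage-marker cells, below both 3-month mice, and the other 3 were at 238 to 403.

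**Figure D3:**
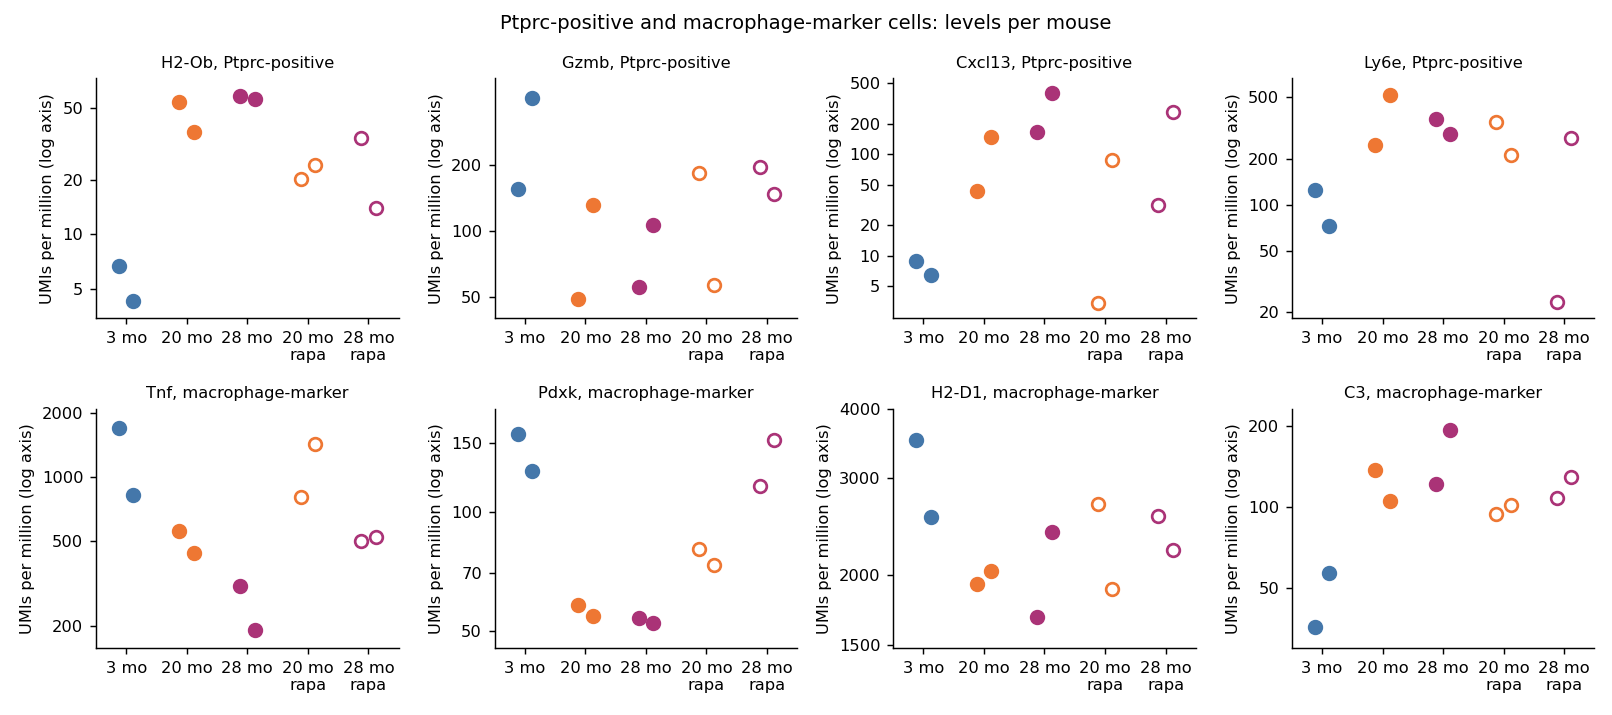
Levels of 8 genes per mouse in CPM (log axes), *H2-Ob*, *Gzmb*, *Cxcl13* and *Ly6e* in *Ptprc*-positive cells and *Tnf*, *Pdxk*, *H2-D1* and *C3* in macrophage-marker cells, with filled circles for mice without rapamycin and open circles for rapamycin. *H2-Ob* is at 4.30 and 6.66 at 3 months against 36.9 to 58.3 in the 4 older mice, and *Tnf* at 819.8 and 1703 against 192 to 556, neither past the test.

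In the low-*Svs* cells as a whole, most secretory genes outside the rule had a negative log2 fold change, and none was called. *Svs3b*, a seminal vesicle secretory protein, was at 495 and 424 CPM at 3 months, 243 and 247 at 20 months and 278 and 222 at 28 months (-0.89 ± 0.18 (SE), edgeR adjusted p = 0.875), although it may share reads with its close copy *Svs3a*. *Svs1* had a log2 fold change of -0.98 ± 0.28 (SE) (edgeR adjusted p = 0.875). *Sva*, seminal vesicle antigen, was at 824 and 1129 at 3 months, 473 and 525 at 20 months and 323 and 643 at 28 months (-0.99 ± 0.29 (SE), edgeR adjusted p = 0.875). Every older mouse was below both 3-month mice for these 3 genes. With an *Svs* limit of 10% the log2 fold changes were -0.26 for *Svs3b* and -0.21 for *Sva*. Of the 8 secretory genes 7 had a negative log2 fold change (median -0.50), and for 4 the groups did not overlap, beside 5.83% of all genes. The *Svs* genes of the rule held 2.00% and 2.66% of the set's UMIs at 3 months and 1.57% to 2.50% later. The part of secretory cells, free RNA and the share of epithelium in these values was not tested.

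*Csrp2*, a LIM domain protein known from smooth muscle, was at 109.6 and 174 at 3 months, 52.3 and 74.6 at 20 months and 46.1 and 64.6 at 28 months (-1.25 ± 0.27 (SE), edgeR adjusted p = 0.875), below both 3-month mice in every older mouse. In the cells left by the filter on B cell and plasma cell marker UMIs, which was not limited to B-marker cells, its log2 fold change was -0.20. In the low-*Svs* cells without that filter, all 14 complement genes had a positive log2 fold change (median 0.79), and for 1 the groups did not overlap. All 15 tested cell cycle genes were positive (median 0.86), also with 1 without overlap, beside 4.80% of genes. Clock genes were negative in 12 of 14 (median -0.26). *Dbp*, a clock output factor, was at 34.5 and 37.4 at 3 months, 23.99 and 32.7 at 20 months and 13.4 and 19.2 at 28 months (-0.68 ± 0.35 (SE), edgeR adjusted p = 0.875). *Per3*, a clock repressor, was at 6.48 and 7.13 at 3 months, 5.09 and 3.47 at 20 months and 4.33 and 5.39 at 28 months (-0.60 ± 0.36 (SE), edgeR adjusted p = 0.875), and both lay below the 3-month mice in all older mice. The hour of dissection per mouse is not given in the sources used here.

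Median log2 fold changes of the lists differed in sign between the cell sets. Of the 3 sets plotted, complement was positive in all, and the chemokine, senescence and TGF beta medians were positive in stromal cells and negative in *Ptprc*-positive and macrophage-marker cells. Class II was positive in stromal cells, where 4 of 10 genes were tested. The difference itself was tested gene by gene in 1 fit of both sets with the mouse as a block. edgeR called 0 of 7816 genes (percent called 0) whose age difference was not the same in stromal and *Ptprc*-positive cells, 425 had an unadjusted p under 0.05, and DESeq2 called 12. A difference between the cell sets was thus not shown for any single gene by edgeR.

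**Figure D4:**
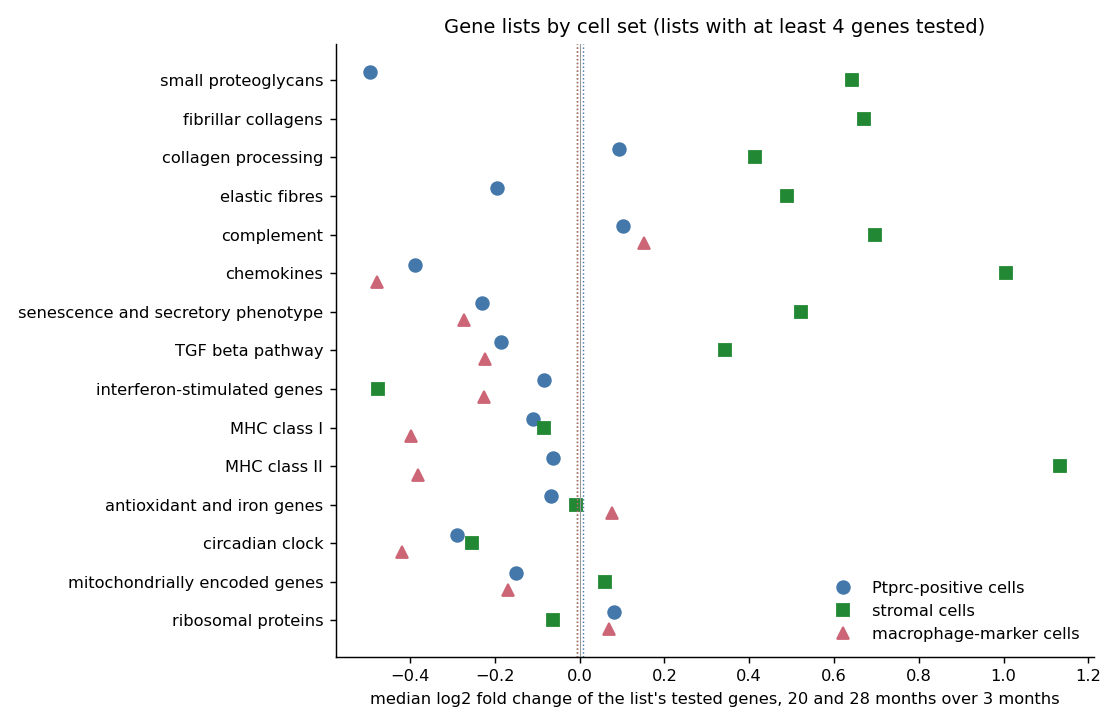
Median log2 fold change of 20 and 28 months over 3 months (x axis) for 15 gene lists with at least 4 genes tested, in *Ptprc*-positive cells (circles), stromal cells (squares) and macrophage-marker cells (triangles), with dotted lines at the median of all genes tested. In stromal cells small proteoglycans are at 0.64, complement at 0.70 and chemokines at 1.01, and interferon-stimulated genes are at -0.48.

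Between the 2 older ages, edgeR called 2 genes in low-*Svs* cells (percent called 0.0171), both higher at 28 months. Of the 11707 genes tested, 1883 had an unadjusted p under 0.05. For the older ages against 3 months this number was 940 with 3 age groups and 329 with the older ages pooled. The pooled older ages were thus not alike in these cells. *Cyth1*, an exchange factor for ARF GTPases (chr11:118132019-118248592), was at 34.01 and 24.7 CPM at 3 months, 29.8 and 20.8 at 20 months and 288 and 266 at 28 months (log2 fold change of 28 over 20 months 3.48 ± 0.30 (SE), edgeR adjusted p = 0.045). The 20-month mice were close to the 3-month mice, whereas all 4 rapamycin mice, including those at 20 months, were at 181, 148, 172 and 150.4. *Cyth1* was similarly split in *Ptprc*-positive cells, at 55.5 and 90.3 at 3 months, 58.99 and 49.2 at 20 months and 371 and 335 at 28 months. In stromal cells it was at 21.3 and 11.7 at 3 months, 28.04 and 12.7 at 20 months and 141 and 71.4 at 28 months. *Lyz1*, a lysozyme whose reads may be shared with its near-identical neighbour *Lyz2*, was at 0.54 and 0.509 at 3 months, 1.45 and 1.73 at 20 months and 45.7 and 70.03 at 28 months (5.09 ± 0.40 (SE), edgeR adjusted p = 0.045). The rapamycin mice were at 18.2 and 1.56 at 20 months and at 0 and 6.00 at 28 months for *Lyz1*. Both calls were lost when any 1 of the 6 mice was left out (edgeR adjusted p up to 0.379).

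In stromal cells edgeR called 4 genes between 28 and 20 months (percent called 0.0617), 2 higher and 2 lower (0.0308 in each direction). *Cxcl13* (3.95 ± 0.40 (SE), edgeR adjusted p = 0.00671) and *C4b* (2.64 ± 0.34 (SE), edgeR adjusted p = 0.0306) were higher at 28 months, where their levels given above set both 28-month mice apart from both 20-month mice. The rapamycin mice were at 27.0 and 81.9 at 20 months and 3.98 and 20.2 at 28 months for *Cxcl13*. For *C4b* they were at 37.9 and 4.96 and at 17.9 and 15.7, so the rise was absent from both 28-month rapamycin mice. The lymphatic endothelial genes *Mmrn1*, at 1.94 and 0 at 3 months, 76.1 and 64.9 at 20 months and 0 and 0 at 28 months (at least 22.6-fold lower, with 3 UMIs over the 28-month mice as the limit, edgeR adjusted p = 0.0306), and *Ccl21a*, at 7.75 and 2.92 at 3 months, 645 and 413 at 20 months and 9.04 and 2.30 at 28 months (-6.38 ± 0.48 (SE), edgeR adjusted p = 0.000931), were both lower. Several copies of *Ccl21a* share its symbol, so the split between them is uncertain. The rapamycin mice were at 5.41 and 2.48 at 20 months and 1.99 and 4.49 at 28 months for *Ccl21a*. For *Mmrn1* they were at 0 and 2.48 and at 1.99 and 0, so the 20-month rapamycin mice lacked the high levels of the untreated ones. The 6 lymphatic markers summed to 13.6 and 11.7 at 3 months, 837 and 581 at 20 months and 25.3 and 11.5 at 28 months in the same cells. Without mouse 2 at 20 months *Cxcl13*, *C4b* and *Mmrn1* lost their calls, and without mouse 1 at 28 months *C4b* and *Mmrn1* did. In *Ptprc*-positive cells edgeR called 0 of 6581 genes between these ages (percent called 0), with 525 at an unadjusted p under 0.05 and 16 called by DESeq2.

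One pair of near-identical genes differed between the ages in how its UMIs were divided. *Gm10260* (ENSMUSG00000069117, chr13:97760072-97760632, minus strand) is annotated as a retrogene of *Rps18* (chr17:33951999-33956001, minus strand), which encodes a protein of the small ribosomal subunit. Over 545 aligned bases of their transcripts, which are 561 and 560 bases long, 540 are identical. Within the aligned part, reads can be told apart only where they cover 1 of 5 differing bases. The unaligned ends were not compared. Counted from 1 at the 5′ end of the *Rps18* transcript, with the *Rps18* base first, these are T243C, A394C, G428A and G488A in the coding sequence and G534C in the 3′ UTR, and positions 394, 428, 488 and 534 lie within 166 bases of the transcript's 3′ end. The first 3 are shown as examples of the single bases that tell the copies apart in the aligned part. Each stretch holds 25 bases of the GENCODE vM21 transcript, 5′ to 3′, with the differing base in capitals.
Rps18, T243C: actcacggaggaTgaggtggagcga
Gm10260, T243C: actcacggaggaCgaggtggagcga
Rps18, A394C: gaggacctggagAggctgaagaaaa
Gm10260, A394C: gaggacctggagCggctgaagaaaa
Rps18, G428A: atagagggctgcGccacttttgggg
Gm10260, G428A: atagagggctgcAccacttttgggg

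*Gm10260* was at 898 and 951 CPM at 3 months, 456 and 448 at 20 months and 517 and 606 at 28 months in low-*Svs* cells (-0.87 ± 0.19 (SE), edgeR adjusted p = 0.875). *Rps18* was at 1209 and 1234 at 3 months, 1629 and 1715 at 20 months and 1774 and 2034 at 28 months (0.55 ± 0.17 (SE), edgeR adjusted p = 0.875).

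The share of *Gm10260* in the pair's UMIs was 42.6% and 43.5% at 3 months, 21.9% and 20.7% at 20 months and 22.6% and 22.95% at 28 months. Mice of 3 months and older mice were thus apart, with about equal values inside each group. The same split was present in *Ptprc*-positive cells (40.1% to 42.9% against 20.3% to 23.5%), stromal cells (41.5% to 44.8% against 19.4% to 23.2%) and macrophage-marker cells (46.1% to 51.0% against 18.8% to 24.2%). In T-marker cells it was 29.9% to 40.0% against 21.6% to 27.3%. Of the rapamycin mice 3 were at 21.7% to 21.9% and mouse 1 at 28 months was at 43.8%, with the 3-month mice. The 13 mice outside the aging pool, which are of another strain, were at 29.6% to 47.2%. Their shares were taken without the *Svs* limit, so secretory cells are included. No test was run on these shares, and whether they reflect the animals' genomes, the reference or expression was not tested.

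*Gm47283* (chrY:90784738-90816464) and *Gm21887* (chrX:170009659-170019281) are a second pair of copies, identical over all 529 aligned bases of their transcripts. *Gm47283* was at 49.1 and 50.6 CPM at 3 months, 236 and 191 at 20 months and 119.7 and 189 at 28 months in low-*Svs* cells (1.88 ± 0.30 (SE), edgeR adjusted p = 0.875), and DESeq2 called it there and in stromal cells. *Gm21887* was at 2.70 and 5.85 at 3 months, 10.2 and 15.4 at 20 months and 16.9 and 16.5 at 28 months (1.72 ± 0.40 (SE), edgeR adjusted p = 0.875). Both were higher in every older mouse than at 3 months, and *Gm47283* held 89.6% and 94.8% of the pair's UMIs at 3 months and 87.6% to 95.9% later. Which copy the reads came from is therefore uncertain.

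**Figure D5:**
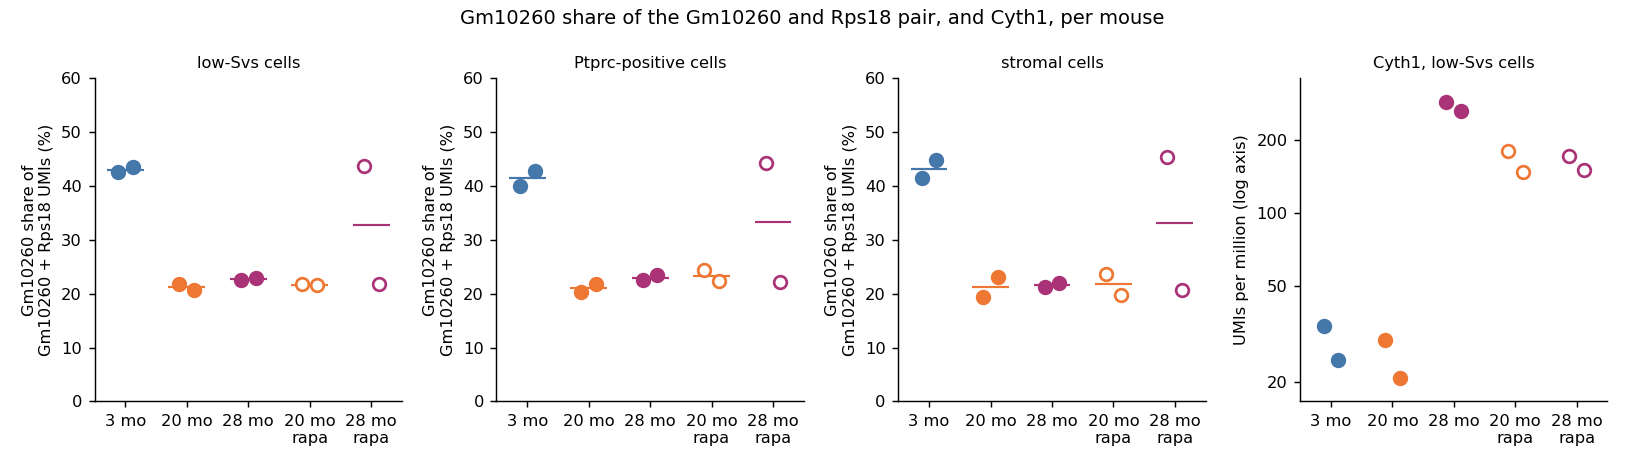
Share of *Gm10260* in the UMIs of *Gm10260* and *Rps18* per mouse in percent (y axes from 0) in low-*Svs*, *Ptprc*-positive and stromal cells, and *Cyth1* in low-*Svs* cells in CPM (log axis), with filled circles for mice without rapamycin and open circles for rapamycin. In low-*Svs* cells the 2 mice at 3 months and 1 rapamycin mouse are at 42.6% to 43.8% and the other 7 at 20.7% to 22.95%.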

How the data were processed

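Seminal vesicle RNA of 10 mice of 1 pool was counted as UMIs in droplets. The authors made the deposited count matrices with Cell Ranger on mm10 and split the pool by sample tags, and Seurat stands in the submitters' processing notes. Each matrix held 32285 genes after 12 tag features were left out, and no column belonged to an unmapped sample. Raw counts were used. No doublet caller was run, so doublets left by tag demultiplexing remain. Cells were filtered, sets formed and UMIs summed per mouse as described above, with at least 10 cells per mouse. The 2 mice at 3 months were compared with the 4 older mice by edgeR 4.0.16 (TMM, filterByExpr, quasi-likelihood test) in R 4.3.3, with DESeq2 1.42.0 as an alternative and p-values adjusted by Benjamini-Hochberg across the tested genes of a set. Levels use TMM-scaled library sizes. Marker shares were compared by exact permutation tests over all splits (NumPy 2.4.6), and exact intervals were computed with SciPy 1.17.1. Transcripts were aligned with biotite 1.4.0, and positions were taken from GENCODE vM21 (GRCm38). Per-mouse totals of 1348457 to 3962366 UMIs set the precision of low-*Svs* sums.

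With no gene past the threshold, the 3 genes of lowest p in each direction above 10 CPM were named per set, and of each list up to 4 members of lowest p, some of which are not reported here. Genes called by DESeq2 or between 28 and 20 months, *Prox1*, *Reln* and those in the closing section were named after their values were seen. The comparison, members and gene lists were chosen with earlier results of these data known. Alternatives covered normalization, count and cell filters, thinning, age coding, rapamycin mice and left-out mice. Left-out mice and a replicate block for 28 against 20 months, left-out mice for the difference between cell sets, B cell receptor counts and cells free of epithelial or endothelial markers were added after seeing the data. Replicate numbers did not pair the mice: correlations of deviations between same-numbered mice ran from -0.112 to 0.382.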

Additional observations from a re-analysis of the deposited data

Results flagged for a closer look

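Dixon's test, which sets the gap to the nearest mouse against the range, was applied to 121 values of the 4 older mice. In 11 of them 1 mouse stood apart from the other 3. The values share mice and cells and belong to chosen genes, so no chance rate can be set beside this count. In mouse 1 at 20 months the flagged values were *Jchain* in low-*Svs* cells at 1734 CPM, *Prelp* at 156 and *Acta2* at 4294 in stromal cells, and *Gas6*, a ligand of receptors for dying cells, at 58.3 in macrophage-marker cells. Mouse 2 at 20 months was highest for the share of NK-marker cells at 7.89% and for *Epcam* in stromal cells at 68.8 CPM. Mouse 1 at 28 months was the only older mouse with *Ccl11* in T-marker cells, at 14.4 CPM.

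Mouse 2 at 28 months had the lowest share of macrophage-marker cells, 27.8% of *Ptprc*-positive cells, beside the highest share of B-marker cells. The same mouse was highest for *Gpx3* in stromal cells at 1094 CPM and for *Baiap2* in macrophage-marker cells at 66.2, and lowest for *H2-DMb2* there at 22.8.

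Among mice without rapamycin, those at 28 months differed from those at 20 months by edgeR's test of that difference for 6 genes. In low-*Svs* cells the log2 fold changes of 28 over 20 months were 5.09 for *Lyz1* and 3.48 for *Cyth1*. In stromal cells they were 3.95 for *Cxcl13*, 2.64 for *C4b*, -6.38 for *Ccl21a* and -8.22 for *Mmrn1*, the last a fitted value against 2 mice without a UMI.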

How the results depend on the processing

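The count of genes called with age moved from 0 as follows. DESeq2 called 2 in low-*Svs*, 5 in *Ptprc*-positive, 8 in stromal and 1 in macrophage-marker cells. With no filter on low counts edgeR called 49 in *Ptprc*-positive, 225 in stromal, 93 in macrophage-marker and 50 in T-marker cells. In stromal cells an *Svs* limit of 10% gave 29, 3 age groups 2 and age as a number 3. Rapamycin mice as the older group gave 2 in low-*Svs* and 3 in stromal cells. Leaving out 1 mouse gave 0 to 4 in *Ptprc*-positive cells and 0 to 32 in stromal cells, both highest without mouse 2 at 20 months, and 0 to 1 in macrophage-marker cells (1 without mouse 1 at 3 months). The cause of these moves was not tested.

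Between 28 and 20 months no filter gave 329 in low-*Svs*, 322 in *Ptprc*-positive and 164 in stromal cells, and DESeq2 gave 226, 16 and 10. Leaving out 1 mouse gave 0 to 5, 0 to 16 and 5 to 21, each highest without mouse 1 at 20 months. For the difference between stromal and *Ptprc*-positive cells no filter gave 103, DESeq2 12 and left-out mice 0 to 5. With the replicate block, where the shared numbers do not pair the mice, 0 genes were called with age in each of the 5 sets, and 6, 3 and 9 between 28 and 20 months in low-*Svs*, *Ptprc*-positive and stromal cells.

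The T-marker share turned to 2.77 points when cells were thinned and 0.928 with rapamycin mice (-11.6 to 5.23 without 1 mouse), the macrophage-marker share to 2.09 with rapamycin mice (-8.47 to 2.01), and the dendritic share to 0.278 with at least 3 marker UMIs (-4.12 to 3.55). Log2 fold changes turned for *Igkc* in the cells left by the filter on B cell and plasma cell marker UMIs (-0.0756). They also turned for *Prelp* without epithelial-marker cells (-0.11) and *Acta2* in cells of at least 3 collagen UMIs and no *Epcam* UMI (-0.18). Without 1 mouse *H2-Aa* turned in *Ptprc*-positive cells (-0.80 to 0.19, positive without mouse 1 at 3 months). With rapamycin mice *Col3a1* (-0.20), *Il6* (-0.0515) and *Plau* (0.0541) turned. Of the log2 fold changes of named genes, 36 of 99 were under 0.5 times the value given or turned with rapamycin mice as the older group, 8 of 113 without mouse 1 at 3 months, 5 of 24 in stromal cells free of epithelial markers, 5 of 112 with no *Svs* limit and at most 2 under each other setting. Depth limits genes of few UMIs, and T-marker sums of 25 cells most.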

Other observations

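Other lists were measured beside those above, and no member was called in any of them. Ribosomal protein genes had a positive log2 fold change in 70 of 86 tested in *Ptprc*-positive cells (median 0.08) and in 59 of 82 in macrophage-marker cells (median 0.07), and a negative one in 67 of 86 in stromal cells (median -0.06). The genes encoded by mitochondrial DNA were negative in 12 of 13 in low-*Svs* and in *Ptprc*-positive cells (medians -0.09 and -0.15), and in 6 of 13 in stromal cells (median 0.06). Immediate early and heat shock genes, which respond to dissociation, were positive in 10 and negative in 10 of 20 in stromal cells (median -0.03) and had a median of -0.03 in *Ptprc*-positive cells. Basement membrane genes were positive in 9 of 14 in stromal cells (median 0.21), and matrix proteases and their inhibitors in 8 of 11 (median 0.23). Steroid hormone response genes were positive in 5 of 9 in stromal cells (median 0.11).

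Neutrophil RNA was present in a pair of the older mice. *S100a8* and *S100a9*, the calprotectin chains of neutrophils, had no UMI in *Ptprc*-positive cells at 3 months. *S100a9* stood at 0, 228, 121 and 0 and *S100a8* at 0, 228, 63.96 and 0.819 CPM in the 4 older mice, in the order of mice 1 and 2 at 20 months and 1 and 2 at 28 months. Mouse 2 at 20 months and mouse 1 at 28 months thus held nearly all of it, and edgeR called neither gene (edgeR adjusted p = 0.999). *Upk3a*, a uroplakin of urothelium, had no UMI in low-*Svs* cells at 3 months and stood at 10.9, 0.248, 0 and 55.8 in the older mice, where mouse 2 at 28 months held most of it.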
